A study of Mus musculus with 4 samples.

Results

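The genes described here are the 7 that code for the best known parts of the endocannabinoid system in the brain: Cnr1, Dagla, Daglb, Napepld, Mgll, Faah and Abhd6. They were chosen by name, with no measured value in the rule, though earlier results of these data were known. All 7 are among the 20136 genes of the count tables. The tables come from Drop-seq, a droplet method that tags the RNA of single cells with cell barcodes and with unique molecular identifiers (UMIs), which are counted in place of reads. The tissue was BNST (bed nucleus of stria terminalis, part of the extended amygdala), punched from the brains of male wildtype C57BL/6J mice. There were 4 libraries, labelled as batches 1 to 4, and each pooled 6 mice, so 24 mice were sampled in all. No treatment, mutant or control group is named, the age of the mice is not given, and the animals of a pool cannot be separated. The comparisons are therefore between cell classes and neuron subtypes within the same libraries, with the pool as the replicate.

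Endocannabinoids are lipid messengers that a postsynaptic cell makes on demand and that act mainly on the presynaptic CB1 receptor, the product of Cnr1, to lower transmitter release. The diacylglycerol lipases coded by Dagla and Daglb make 2-arachidonoylglycerol (2-AG), which Mgll, the monoacylglycerol lipase, and to a smaller part Abhd6 break down. Napepld codes for a phospholipase D that can release anandamide, and Faah codes for the amide hydrolase that breaks anandamide down. In the extended amygdala this signalling is known for its part in stress and anxiety responses, and in cortex and hippocampus CB1 is known for its high level in cholecystokinin interneurons.

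Cnr1 lies on chromosome 4 at chr4:33924593-33948831 on the plus strand and Faah on the same chromosome at chr4:115967145-116017926 on the minus strand, in GRCm38 with GENCODE vM21. Dagla is at chr19:10245265-10304877 (minus), Daglb at chr5:143464584-143505942 (plus), Napepld at chr5:21662901-21701396 (minus), Mgll at chr6:88724412-88828360 (plus) and Abhd6 at chr14:8002902-8056763 (plus). The promoters of the 3 members with the clearest class patterns below are printed here so that the neuronal receptor can be set beside the breakdown enzymes. Each is the RefSeq window on GRCm38.p6 nearest to the GENCODE gene start, from 250 bases before to 50 bases after a transcript start, read 5′ to 3′ on the gene's strand. Capitals mark the GC box, GGGCGG or its reverse complement CCGCCC.
Cnr1 (chr4:33924394-33924693, plus): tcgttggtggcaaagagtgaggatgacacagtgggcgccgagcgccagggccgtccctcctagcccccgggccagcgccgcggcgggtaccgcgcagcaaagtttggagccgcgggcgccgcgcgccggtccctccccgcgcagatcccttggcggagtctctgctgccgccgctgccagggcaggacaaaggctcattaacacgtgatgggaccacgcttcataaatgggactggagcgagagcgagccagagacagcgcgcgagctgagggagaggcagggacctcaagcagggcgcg
Mgll (chr6:88724162-88724461, plus): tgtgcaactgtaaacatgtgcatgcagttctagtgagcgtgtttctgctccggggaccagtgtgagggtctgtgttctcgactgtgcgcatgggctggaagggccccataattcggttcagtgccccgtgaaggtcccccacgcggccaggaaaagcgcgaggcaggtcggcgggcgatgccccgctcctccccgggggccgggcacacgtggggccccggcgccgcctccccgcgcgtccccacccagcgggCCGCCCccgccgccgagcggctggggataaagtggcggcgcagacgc
Faah (chr4:116017875-116018174, minus): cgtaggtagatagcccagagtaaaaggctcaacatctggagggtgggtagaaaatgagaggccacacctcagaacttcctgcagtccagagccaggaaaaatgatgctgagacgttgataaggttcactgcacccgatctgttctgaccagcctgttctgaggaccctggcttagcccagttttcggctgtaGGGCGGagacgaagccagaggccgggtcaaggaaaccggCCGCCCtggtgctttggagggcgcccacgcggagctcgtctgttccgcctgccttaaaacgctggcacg
The window of Cnr1 held 69.0% G or C, 33 CpG dinucleotides and no GC box, but another RefSeq window of Cnr1, at chr4:33924014-33924313, held 76.3% G or C, 40 CpG dinucleotides and 5 GC boxes. The window of Mgll held 70.0% G or C, 32 CpG dinucleotides and 1 GC box, and that of Faah 57.7% G or C, 16 CpG dinucleotides and 2 GC boxes. Over 32851 RefSeq promoter windows of the same length the median was 52.7% G or C, and 35.7% held a GC box on either strand. None of the 3 windows held TATAAA, which 13.6% of all windows held on either strand, and those of Cnr1 and Mgll each held 1 E box, CACGTG, which 7.15% held. The overlap of 2 members with other genes matters for their counts: Daglb overlaps Rac1 and Mgll overlaps Gm26588, each on the opposite strand. The strand setting of the counting is not given in the sources used here, so the levels of Daglb and Mgll are uncertain to the extent that such reads were counted.

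Of 10200 barcodes with 14018026 UMIs, 4239 had at least 400 genes and at most 10% mitochondrial UMIs, and 58 of these (1.37%) were removed as predicted doublets. The 4181 kept cells (837 to 1281 per library, 2119143 to 4842995 UMIs) had a median of 1849 UMIs, and no barcode of a kept cell occurred in more than 1 library, against 20 over pairs of libraries among all barcodes. Cells were assigned to classes by the number of distinct marker genes with a UMI: 2274 GABAergic and 88 glutamatergic neurons, 916 oligodendrocytes, 356 astrocytes and 148 oligodendrocyte precursors. The GABAergic sums held 11018 to 13980 UMIs per 1000000 (CPM) of the 8 neuron markers that set the class and 21.7 to 54.9 CPM of the 8 oligodendrocyte markers, and the oligodendrocyte sums held 166 to 352 CPM of the neuron markers. The astrocyte sums held 203 to 547 CPM of the neuron markers, and the precursor sums 670 to 1413 CPM. Depth differed strongly, with a median of 3295 UMIs in GABAergic neurons, 1385 in oligodendrocytes, 1016 in precursors and 824 in astrocytes, so shares of cells with a UMI are also given after thinning to 1000 UMIs. Cells with fewer UMIs were left out of the thinned shares: 271 of 2274 GABAergic neurons, 220 of 916 oligodendrocytes, 250 of 356 astrocytes and 72 of 148 precursors. Levels below are CPM of the UMIs summed over the cells of a class in a library, and errors are the SD over libraries. Library 3 had the highest Cnr1 level of the 4 in both neuron classes.

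Cnr1, the receptor, was a neuronal transcript in this tissue. In GABAergic neurons its level was 74.3, 81.5, 143 and 92.6 CPM in libraries 1 to 4 (97.8 ± 30.9, n = 4), from 809 UMIs in 471 cells. In glutamatergic neurons it was 78.5, 90.9, 169.5 and 129.4 CPM (117 ± 41.1, n = 4), from 42 UMIs. No UMI of Cnr1 was counted in any of the 916 oligodendrocytes, which allows a level of up to 1.93 CPM (3 UMIs over the class). Astrocytes held 2 UMIs, both in library 4, and precursors 3 UMIs in libraries 2 and 3. The neurons of every library lay above the glia of every library. Over the class, GABAergic Cnr1 was 47.0-fold the limit for oligodendrocytes, 15.0-fold the level of astrocytes (95% counting interval 4.13 to 124) and 5.34-fold that of precursors (1.82 to 25.9). Intervals and floors cover counting error only. A fold over such a limit leaves out the counting error of the higher class, so it is not a lower bound.

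Differences between these classes were common among all genes. The edgeR quasi-likelihood test on the sums, with the library as a block, tested 4665 genes, and only Cnr1, Mgll and Abhd6 of the 7 members had enough counts to enter it. GABAergic neurons differed from the mean of the 3 glial classes in 72.8% of the genes tested and in 2 of these 3 members. The median gene tested was higher in the GABAergic sums by 0.35 on the log2 scale, and by 0.04 when DESeq2's size factors replaced TMM scaling, so differences are read against that shift. Cnr1 was higher by 5.09 on the log2 scale (SE 0.42, adjusted p = 9.45e-30), a value that depends on the prior count because oligodendrocytes held none. The share of cells with a Cnr1 UMI was 21.1% in GABAergic neurons (median 3295 UMIs) and 0.355% in the 3 glial classes together (median 1165 UMIs). After thinning to 1000 UMIs it was 8.15 ± 2.08% against 0.212%, higher in neurons in 4 of 4 libraries. An exact sign-flip test (two-sided) gave the smallest p it can with 4 libraries, which is above 0.05. Barcodes with under 200 genes, which were not kept as cells, held a mean Cnr1 level of 77.0 CPM, or 76.6 CPM over all of them (counting interval 55.9 to 102.5). The GABAergic level over the class, 90.8 CPM, lay within that interval. What those barcodes hold was not tested.

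The 2 transmitter classes could not be told apart by Cnr1. Glutamatergic neurons had the higher level in 4 of 4 libraries, but the ratio of GABAergic to glutamatergic was 0.936 with a counting interval of 0.686 to 1.31. In the edgeR fit the log2 difference was -0.00 (SE 0.26, 95% interval -0.51 to 0.50), and its sign turned positive in 4 alternative settings. Across the whole table, GABAergic and glutamatergic neurons differed in 5.64% of genes, and in 0 of the 3 members tested by edgeR or by DESeq2. Abhd6 was the 1 member with an unadjusted p under 0.05 (0.0437), and its adjusted p in edgeR was 0.263. It was lower in glutamatergic neurons in 4 of 4 libraries, at 58.7 ± 6.62 against 77.5 ± 9.63 CPM (n = 4 each), and the log2 difference of 0.66 had a 95% interval of 0.02 to 1.31. Mgll differed by -0.04 (SE 0.45), an interval too wide to place it, from 15 glutamatergic UMIs.

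Of the 2-AG synthesis genes, Dagla, the lipase known for synaptic 2-AG, was sparse. Its level in GABAergic neurons was 5.50, 10.6, 9.85 and 12.2 CPM (9.54 ± 2.86, n = 4), from 78 UMIs. Oligodendrocytes held no UMI of it, and GABAergic neurons stood 4.53-fold above the oligodendrocyte limit of 1.93 CPM over the class. Astrocytes held 5 UMIs, at 0, 14.5, 10.5 and 48.3 CPM in libraries 1 to 4. That range covers all 4 GABAergic values, and the GABAergic to astrocyte ratio of 0.578 had a counting interval of 0.237 to 1.83. Astrocytes stood 7.84-fold above the oligodendrocyte limit in Dagla, with 1 of their 4 libraries at 0. The counting interval of the oligodendrocyte to astrocyte ratio reached up to 0.232. Precursors held 1 UMI, and barcodes with under 200 genes held 4, at 6.81 CPM over all of them (counting interval 1.86 to 17.4). With so few UMIs the astrocyte value cannot be set apart from that level. Nor can the GABAergic one, 8.75 CPM over the class (counting interval 6.92 to 10.9). Dagla was not detectable in oligodendrocytes at this depth.

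Daglb, the other diacylglycerol lipase, was spread over all 5 classes. It stood at 13.5, 13.8, 12.7 and 23.9 CPM in GABAergic neurons (15.9 ± 5.32, n = 4) and at 9.55, 18.1, 17.2 and 24.1 CPM in oligodendrocytes (17.2 ± 5.98, n = 4). These ranges overlap almost whole, with a GABAergic to oligodendrocyte ratio of 0.975 (counting interval 0.634 to 1.56). Barcodes with under 200 genes also held Daglb, at 20.4 CPM over all of them (counting interval 10.6 to 35.7). The levels over the class of GABAergic neurons (15.7 CPM) and oligodendrocytes (16.1 CPM) lay within that interval. Precursors were the highest, at 19.5, 65.7, 105 and 53.6 CPM (60.9 ± 35.1, n = 4), from 11 UMIs. They were above the GABAergic value in 4 of 4 libraries, by 3.97-fold over the class (counting interval 1.94 to 7.33). In edgeR without the low-count filter this difference missed the threshold, at -1.28 on the log2 scale for GABAergic minus precursor (SE 0.54, adjusted p = 0.0752, against 21.4% of 19371 genes called).

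Napepld, the anandamide synthesis gene, was higher in oligodendrocytes than in GABAergic neurons. The latter neurons held 7.43, 9.53, 7.74 and 8.14 CPM (8.21 ± 0.926, n = 4, 72 UMIs) and oligodendrocytes 17.2, 12.1, 27.0 and 13.8 CPM (17.5 ± 6.68, n = 4, 28 UMIs). Every oligodendrocyte value lay above every GABAergic value, and the ratio was 2.23 (counting interval 1.39 to 3.50). In edgeR without the low-count filter the difference was past the threshold, at -1.31 for GABAergic minus oligodendrocyte (SE 0.40, adjusted p = 0.00302), where 39.8% of genes were called. In astrocytes no Napepld UMI was counted, but the limit of 9.09 CPM lies above the GABAergic level, so a difference between those classes was not detectable. Oligodendrocytes stood 1.98-fold above that astrocyte limit. Glutamatergic neurons held 5 UMIs, all in library 1, where their 19.6 CPM was above the oligodendrocyte value.

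Mgll, the main enzyme of 2-AG breakdown, had its high levels in glia. In GABAergic neurons it was at 34.95, 21.7, 35.9 and 27.0 CPM (29.9 ± 6.76, n = 4). In astrocytes it was at 184, 319, 346 and 338 CPM (297 ± 76.2, n = 4), and in precursors at 156, 230, 331 and 455 CPM, with a mean of 293 ± 130 (SD, n = 4). All 8 of these glial values lay above every neuronal value, GABAergic or glutamatergic. Over the class, astrocytes held 9.43-fold the GABAergic level (counting interval 7.39 to 12.0) and precursors 9.48-fold (6.88 to 12.8). In edgeR the log2 difference was -3.43 for GABAergic minus astrocyte (SE 0.26) and -2.99 for GABAergic minus precursor (SE 0.32), both past the threshold, against 67.9% and 56% of all genes. Astrocytes and precursors did not differ past it, at -0.44 for precursor minus astrocyte, a difference that turned to 0.19 when only cells with at least 800 genes were kept. After thinning to 1000 UMIs, an Mgll UMI would show in 17.2 ± 5.76% of the 106 astrocytes and 21.5 ± 10.1% of the 76 precursors deep enough (SD, n = 3 libraries each), and in 3.18 ± 0.770% of the 2003 such GABAergic neurons (n = 4). The shallower astrocytes and precursors are not covered by these shares.

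Oligodendrocytes stood between these classes in the mean level of Mgll, with 1 library apart from the rest. Their level was 105, 112, 22.1 and 72.4 CPM in libraries 1 to 4 (77.8 ± 41.0, n = 4). Library 3 fell below its own GABAergic value of 35.9 CPM, and the other 3 libraries lay above theirs. The edgeR difference was -1.63 for GABAergic minus oligodendrocyte (SE 0.23, adjusted p = 2.81e-12, against 75.6% of genes called), but in cells of 500 to 2000 UMIs, a window added after the data were seen, it was 0.41 (adjusted p = 0.414). Astrocytes were above oligodendrocytes by 1.80 (SE 0.26, 49.1% of genes called) and precursors by 1.35 (SE 0.31, 46.9% called). With only cells of at least 800 genes these were 0.36 (adjusted p = 0.661) and 0.54 (adjusted p = 0.31) in edgeR. Barcodes with under 200 genes held 102.5 CPM of Mgll, more than the oligodendrocyte mean.

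**Figure D1:**
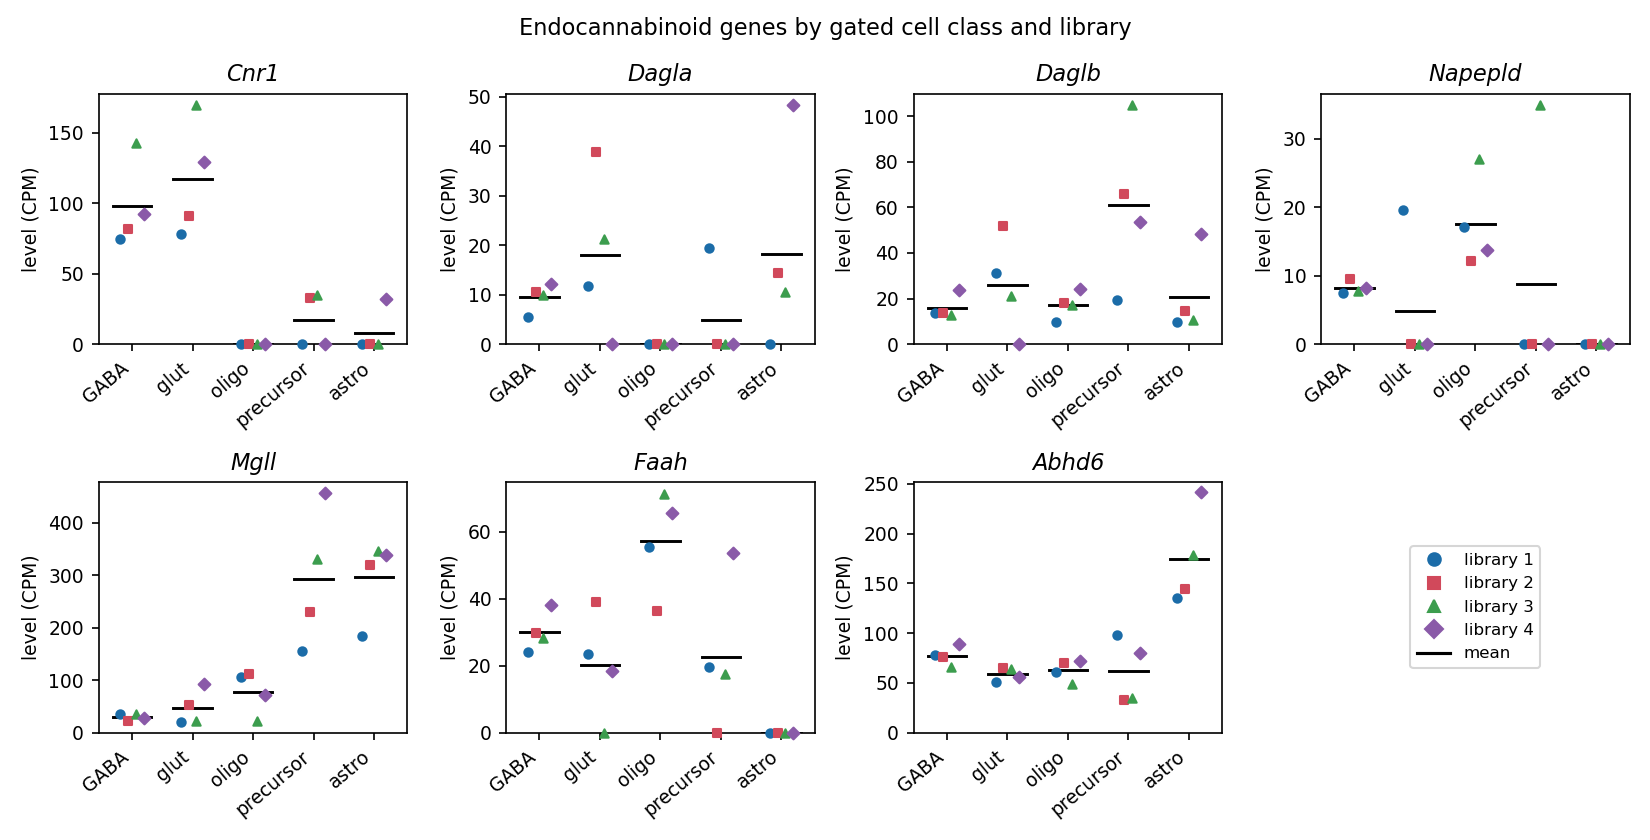
Level of each member (vertical axis, CPM, a separate linear scale per gene) in 5 gated cell classes (horizontal axis; GABA and glut are neurons, oligo, precursor and astro are glia). Each symbol is 1 of 4 libraries, offset sideways for legibility, and the line is their mean; Cnr1 sits at 74.3 to 170 CPM in neurons and at 0 in oligodendrocytes, while Mgll is highest in astrocytes and precursors and Faah is at 0 in astrocytes.

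Within the oligodendrocyte class a few cells held most of the Mgll. The 23 cells with at least 2 Mgll UMIs (2.51% of the class, and 8.31% of its UMIs) carried 62.3% of the Mgll UMIs, and 5 cells had 5 or more, up to 9. From depth alone, with 1 level for the class in each library, 11.9 cells would have at least 2 and 0.0398 cells at least 5. The 23 cells came from every library, with 12, 7, 1 and 3 of them in libraries 1 to 4. They were deep, with a median of 5000 UMIs, held no UMI of the 8 astrocyte markers, 39 UMIs of the precursor markers (302 CPM) and 38562 CPM of the oligodendrocyte markers. The 847 oligodendrocytes without Mgll held less of the precursor markers, at 29.1 CPM, with 14.5 CPM of the astrocyte and 24314 CPM of the oligodendrocyte markers. Bmp4, a gene known from newly formed oligodendrocytes, had 12 UMIs in these 23 cells and 1 UMI in the 847 cells without Mgll. Enpp6, another such gene, was not higher, at 124 CPM in the 23 cells and 148 CPM in the 847. Ptgds, a gene of mature oligodendrocytes, was at 3799 CPM in the 23 cells and 9573 CPM in the 847, and Il33 at 54.3 and 701.1 CPM.

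The newly formed genes Bmp4, Enpp6, Tcf7l2, Rras2 and Tmem163 were then summed per oligodendrocyte. They were chosen after the values of the 23 cells were seen, so the levels that follow are a description with no test. In the cells with none of these UMIs, Mgll was at 58.4, 61.1, 22.8 and 43.7 CPM (46.5 ± 17.5, n = 4). In the 67 cells with 2 or more it was at 144, 404.5, 31.2 and 213 CPM (198 ± 157, n = 4), above the first group in 4 of 4 libraries though only narrowly in library 3. Faah stood at 43.0 ± 11.7 and 74.5 ± 41.9 CPM in these groups, with library 2 lower in the second, and Abhd6 at 57.3 ± 13.8 and 48.7 ± 18.8 CPM. The 67 cells were also deeper, with a median of 2592 against 1297 UMIs, and the part of depth was not tested.

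**Figure D2:**
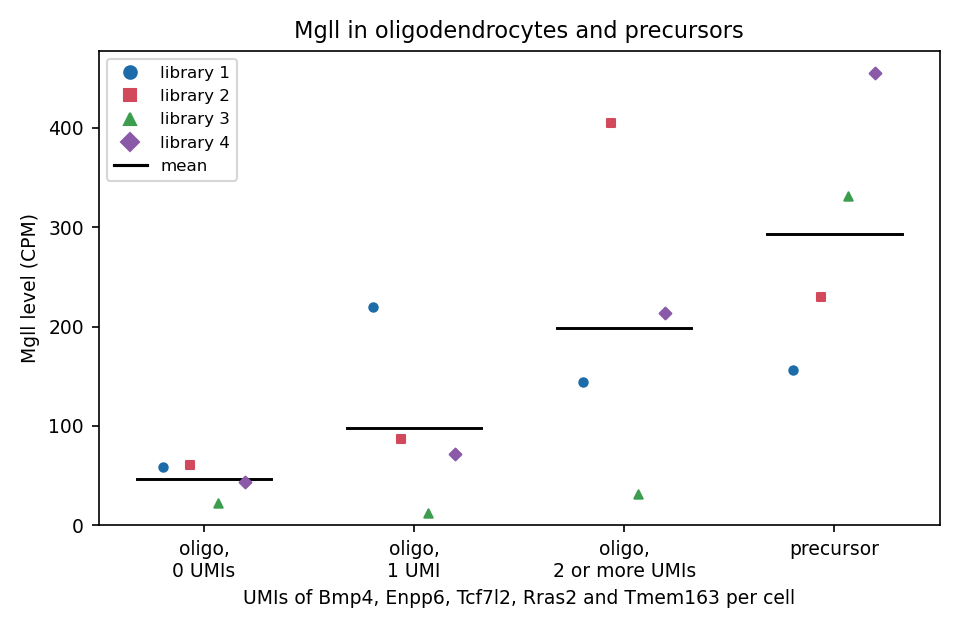
Mgll level (vertical axis, CPM, linear) in oligodendrocytes split by their summed UMIs of 5 newly formed oligodendrocyte genes, and in precursors. Each symbol is 1 of 4 libraries, offset sideways, and the line is the mean, which goes from 46.5 CPM at 0 UMIs to 198 CPM at 2 or more, with library 3 low in all 3 oligodendrocyte groups.

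Faah, the enzyme of anandamide breakdown, was high in oligodendrocytes and not seen in astrocytes. GABAergic neurons held 23.9, 29.6, 28.1 and 38.2 CPM (30.0 ± 5.96, n = 4, 258 UMIs) and oligodendrocytes 55.4, 36.3, 71.2 and 65.5 CPM (57.1 ± 15.4, n = 4, 89 UMIs). Oligodendrocytes were higher in 4 of 4 libraries, though the oligodendrocyte value of library 2 was below the GABAergic value of library 4. The ratio was 1.98 (counting interval 1.54 to 2.53), and edgeR without the low-count filter gave -1.19 for GABAergic minus oligodendrocyte (SE 0.24, adjusted p = 1.95e-06). After thinning, 4.62 ± 1.08% of oligodendrocytes and 2.86 ± 0.488% of GABAergic neurons with at least 1000 UMIs would show a Faah UMI, the first higher in 4 of 4 libraries. Barcodes with under 200 genes held 47.7 CPM of Faah over all of them (counting interval 31.7 to 68.9). The oligodendrocyte level over the class, 57.4 CPM, lay within that interval. None of the 356 astrocytes had a Faah UMI, which allows up to 9.09 CPM. Oligodendrocytes stood 6.31-fold and GABAergic neurons 3.19-fold above that limit. Napepld and Faah, the synthesis and breakdown genes of anandamide, were thus both higher in oligodendrocytes than in GABAergic neurons and both without a UMI in astrocytes, whereas Mgll was high there.

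Abhd6, the other 2-AG hydrolase, was present in every class compared here and highest in astrocytes. Its level was 78.4, 75.7, 66.1 and 89.5 CPM in GABAergic neurons (77.5 ± 9.63, n = 4) and 61.1, 69.5, 49.1 and 72.4 CPM in oligodendrocytes (63.0 ± 10.4, n = 4). In astrocytes it was 135, 145, 178 and 241.5 CPM (175 ± 48.0, n = 4), and all 4 values lay above every value of the other 4 classes. In edgeR GABAergic minus astrocyte was -1.32 (SE 0.26, adjusted p = 1.95e-06) and astrocyte minus oligodendrocyte was 1.36 (SE 0.29, adjusted p = 1.52e-05). In cells with at least 800 genes neither call held, at -0.39 and 0.29. Precursors, at 61.4 ± 32.6 CPM, were below astrocytes by 1.89 (SE 0.46, edgeR adjusted p = 3.19e-04, 31% of genes called). Barcodes with under 200 genes held 73.2 CPM of Abhd6 over all of them (counting interval 53.0 to 98.6). The levels over the class of GABAergic neurons (78.3 CPM), oligodendrocytes (61.9 CPM) and precursors (62.4 CPM) lay within that interval. Against the mean of the 3 glial classes Abhd6 in GABAergic neurons did not pass the threshold, at -0.23 (SE 0.22, adjusted p = 0.332 in edgeR), and the sign turned without the low-count filter (0.05) and in cells with at least 800 genes (0.07).

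The wider pathway list of 26 genes, which holds receptors, synthesis, breakdown and transport genes beside the 7 members, had 24 genes in the tables and 12 with enough counts for edgeR. In GABAergic neurons against the 3 glial classes 6 were higher, 2 lower and 4 not past the threshold, with a median log2 difference of 1.09 against 0.35 over all genes tested, of which 72.8% were called. The higher genes included Grm5 (3.60), a glutamate receptor known to trigger 2-AG synthesis, and Plcb4 (2.18), a phospholipase that supplies its precursor. The 2 lower genes were Fabp7 (-6.57), a lipid carrier of astrocytes and precursors, and Abhd4 (-5.10), an enzyme of another route to anandamide. Only Plcb1, with a log2 difference of 0.98 (SE 0.18, adjusted p = 8.12e-06), was past the edgeR threshold between GABAergic and glutamatergic neurons. Of genes with the most similar levels over the 22 class sums, chosen among 8147, Cnr1 was closest to Clstn2, Sv2b and Cntnap4 (Pearson's r of log2 levels 0.937, 0.931 and 0.929), and Mgll to Kank1, Timp4 and Cyp2j9 (0.877, 0.871 and 0.870). For Faah the closest were Nacad (0.913), Tmem108 and Prkcz, and for Abhd6 Map2k7 (0.945), Gcdh and Tprkb. These sums share libraries and differ in depth, so the coefficients are descriptions.

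Within the GABAergic neurons, 16 gates were drawn from neuropeptide and transcription factor genes. A cell was positive with at least 2 UMIs of the gate genes and negative with 0, and a cell could be in several gates. The 16 edgeR fits gave 83 tests of members, of which 9 passed the threshold, 4 higher and 5 lower. Over all genes the fits called 5.18% of 141752 tests, 2.67% higher and 2.51% lower. Cnr1 accounted for 6 of the 9, Abhd6 for 2 and Mgll for 1. Positive cells were deeper in most gates, for example a median of 4806 UMIs against 3104 for Crh, and the part of depth in CPM differences was not tested beyond the alternatives.

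Cnr1 was highest in the gates for Prkcd, Crh and Tac2 or Ebf1. Crh codes for corticotropin-releasing factor, Tac2 for neurokinin B and Prkcd for protein kinase C delta, a marker of neurons of the lateral extended amygdala. In the 230 Crh-positive cells Cnr1 was at 104, 122, 326 and 151 CPM in libraries 1 to 4 (176 ± 102, n = 4), and in Crh-negative cells at 68.7, 76.3, 110.5 and 77.7 CPM (83.3 ± 18.5, n = 4). The positive cells were higher in each library, and library 3 was far above the others. The log2 difference was 0.99 (SE 0.15, edgeR adjusted p = 3.59e-06, against 6.51% of genes called in that gate), and without library 3 it was 0.75 and still called. In the 220 cells positive for Tac2 or Ebf1 the level was 114, 123, 173 and 185 CPM (149 ± 35.6, n = 4) against 90.2 ± 36.0 CPM in negative cells. That was a log2 difference of 0.83 (SE 0.15, edgeR adjusted p = 9.26e-05, against 3.91% of genes). Without the library block, neither the Crh call (1.05, adjusted p = 0.078) nor the Tac2 or Ebf1 call (0.70, adjusted p = 0.4) held in edgeR.

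The 50 Prkcd-positive cells had the highest Cnr1 level of all gates. It was 163.5, 242 and 192 CPM in libraries 1, 2 and 4 (199 ± 39.9, n = 3), above the GABAergic mean in each. Library 3 held only 6 such cells, at 87.0 CPM, and was not in the fit. The log2 difference was 1.36 (SE 0.30, edgeR adjusted p = 5.60e-04, against 6.31% of genes), and without library 2, with 2 libraries left, it was 1.05 (adjusted p = 0.212). Prkcd cells made up 2.20% of GABAergic cells and 6.18% of their Cnr1 UMIs, Crh cells 10.1% and 24.6%, and Tac2 or Ebf1 cells 9.67% and 20.6%.

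The Crh and Tac2 or Ebf1 gates shared 74 cells, 32.2% of the first and 33.6% of the second. In the shared cells Cnr1 was at 172, 197, 366 and 228 CPM (241 ± 86.6, n = 4). In Crh cells without Tac2 or Ebf1 it was at 79.2, 80.1, 315.5 and 116.5 CPM (148 ± 113, n = 4, 156 cells), and in Tac2 or Ebf1 cells without Crh at 99.1, 82.5, 45.5 and 154 CPM (95.4 ± 45.3, n = 4, 146 cells). The shared cells lay above both of the others in 4 of 4 libraries. In cells of none of the 3 gates the level was 61.3, 62.7, 114 and 71.0 CPM (77.3 ± 24.99, n = 4, 1850 cells). The Crh cells without Tac2 or Ebf1 were above these in 4 of 4 libraries and the Tac2 or Ebf1 cells without Crh in 3 of 4, with overlapping ranges in both cases. Prkcd cells outside both gates kept 203 ± 40.8 CPM (n = 3 libraries with at least 10 cells, 48 cells). These combined groups were formed after the gate results were seen and were not tested.

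Cnr1 was lowest in the gate for Ppp1r1b or Crym, which code for DARPP-32, a dopamine-regulated phosphatase inhibitor, and mu-crystallin. In its 241 cells the level was 45.3, 46.0, 61.9 and 50.8 CPM (51.0 ± 7.67, n = 4) against 104 ± 37.3 CPM in negative cells. All 4 positive values were below all 4 negative ones, and the log2 difference was -0.94 (SE 0.21, edgeR adjusted p = 4.36e-04, in a gate where 21.1% of all genes were called). Depth hardly differed here, with a median of 3342 UMIs in positive and 3296 in negative cells. These cells were 10.6% of GABAergic cells and held 5.56% of their Cnr1 UMIs. Mgll went the other way in the same gate, at 72.0, 19.7, 96.3 and 59.3 CPM (61.8 ± 31.99, n = 4) against 25.8 ± 5.18 CPM, a log2 difference of 1.25 (SE 0.27, edgeR adjusted p = 2.56e-04). Library 2 was the exception, with positive cells at 19.7 CPM against 22.2 CPM in negative cells. Of the classes where Mgll was high, the summed astrocyte markers ranged from 0 to 13.8 CPM in the positive and from 3.64 to 11.9 CPM in the negative cells, and the precursor markers from 0 to 20.6 CPM and from 13.55 to 31.4 CPM. Faah in this gate had a log2 difference of -1.05, just outside the threshold (edgeR adjusted p = 0.0523).

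Cells with Cck, the cholecystokinin gene, were low and uneven in Cnr1, in contrast to the cortical pattern given as background above. Their level was 30.4, 10.2, 77.8 and 126.5 CPM in libraries 1 to 4 (61.2 ± 51.9, n = 4, 136 cells). Libraries 1 and 2 were far below the GABAergic level and library 4 was above it. The log2 difference of -0.86 (SE 0.25, edgeR adjusted p = 0.0275, against 4.44% of genes) was lost without library 1 (-0.65) or library 3 (-0.80), without the block (-0.79), with DESeq2 (-0.87), with stricter class markers (-0.84) and with mitochondrial UMIs limited to 5% (-0.27). Cartpt cells, which carry the peptide gene CART, held 50.6, 75.9, 55.0 and 104 CPM of Cnr1 (71.3 CPM on average), a log2 difference of -0.58 (SE 0.18, edgeR adjusted p = 0.0466, against 4.18% of genes). That call was lost in 7 of 15 alternative settings: without library 1 (-0.51) or library 3 (-0.26), without the block (-0.59), with DESeq2 (-0.52), at 5% mitochondrial UMIs (-0.19), when 1 UMI was enough to enter the gate (-0.39) and with positive cells in no other gate (-1.20). The Cck and Cartpt gates shared 71 cells, 52.2% of the first and 20.1% of the second, so their 2 calls are not independent. Where positive cells were limited to those in no other gate, only 5 of the 16 gates had enough cells. Of 21 member tests there, 1 passed the edgeR threshold, Cnr1 in the Zic1 or Zic4 gate (-2.98, SE 0.74, adjusted p = 0.00806). With all positive cells of that gate Cnr1 was not called (-0.35, edgeR adjusted p = 0.609) and was lower in 3 of 4 libraries.

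**Figure D3:**
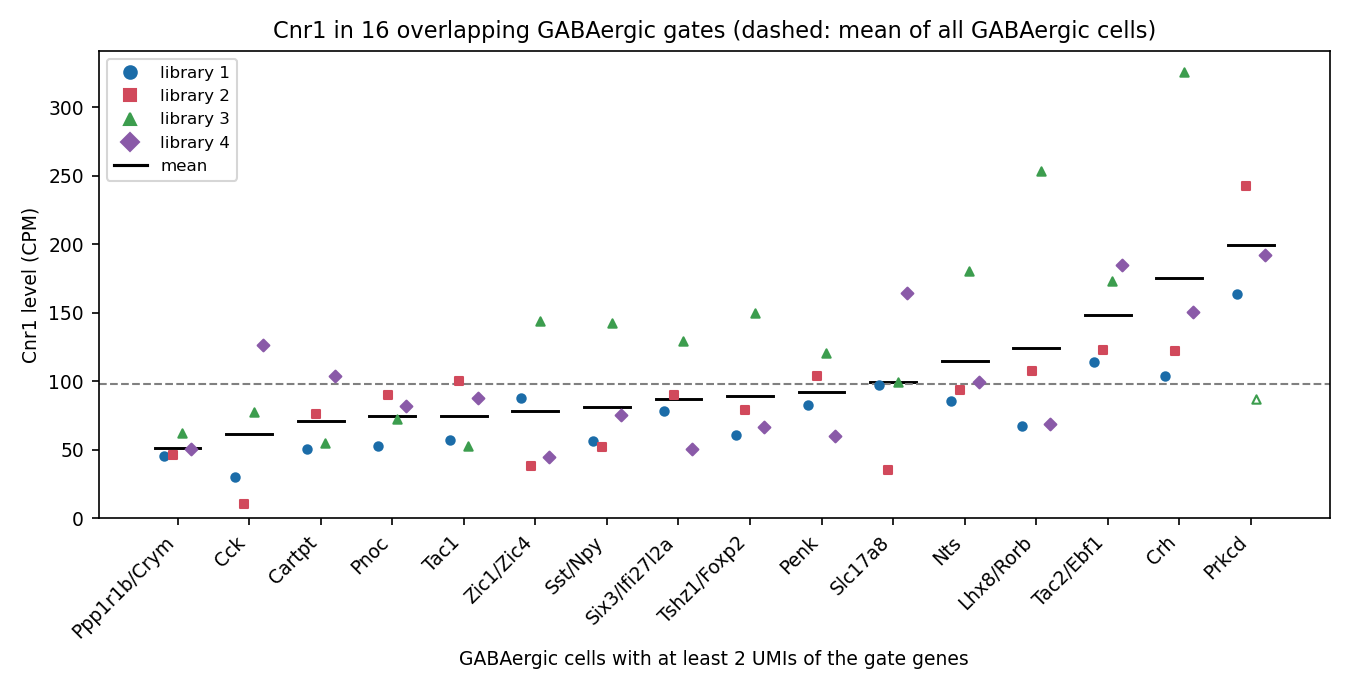
Cnr1 level (vertical axis, CPM, linear) in GABAergic cells with at least 2 UMIs of the gate genes named on the horizontal axis, in order of the mean. Each symbol is 1 of 4 libraries, offset sideways, the hollow one a library with fewer than 10 such cells that is not in the mean; means run from 51.0 CPM for Ppp1r1b or Crym to 199 CPM for Prkcd, around the dashed GABAergic mean of 97.8 CPM.

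Abhd6 was lower in Crh cells, where Cnr1 was higher. Crh-positive cells held 42.0, 67.1, 36.7 and 43.6 CPM of Abhd6 (47.3 ± 13.5, n = 4) against 83.4 ± 11.2 CPM in negative cells, lower in each library. The log2 difference was -0.83 (SE 0.20, edgeR adjusted p = 0.00393), and the call was lost without library 1 (-0.75), without library 4 (-0.73), without the block (-0.81) and with DESeq2 (-0.81). Cells positive for Lhx8 or Rorb, transcription factors of which the first is known from cholinergic and medial ganglionic eminence lineages, held 37.2, 37.6, 40.1 and 53.7 CPM (42.2 ± 7.81, n = 4) against 79.2 ± 10.4 CPM. All 4 lay below every negative value, at a log2 difference of -0.97 (SE 0.26, edgeR adjusted p = 0.0116, against 11.5% of genes). That call was lost without library 1 (-0.88) or 2 (-0.94), without the block (-0.94), with DESeq2 (-0.94), at 5% mitochondrial UMIs (-0.74) and when 1 UMI was enough to enter the gate (-0.30). The Lhx8 or Rorb and Crh gates shared 36 cells, 36% of the first and 15.7% of the second, so their 2 Abhd6 calls are not independent.

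The remaining members did not separate the gates. Faah was tested in 16 gates, Daglb in 14 and Dagla in 5, and none passed the threshold in edgeR or in DESeq2. Without the low-count filter, edgeR called Faah lower in the Ppp1r1b or Crym gate (-1.13, adjusted p = 0.0418). Faah had an unadjusted p under 0.05 in 2 gates, Ppp1r1b or Crym and Crh, and Daglb and Dagla in 0. Napepld had too few counts in every gate. The cells with Pnoc, the prepronociceptin gene that gives the series its title, did not differ in any member past the threshold of edgeR, in a gate where 2.6% of all genes were called. In the 276 Pnoc-positive cells Cnr1 was at 52.6, 90.3, 72.6 and 82.0 CPM (74.4 ± 16.2, n = 4) against 106 ± 38.6 CPM in Pnoc-negative cells, lower in 3 of 4 libraries. The log2 difference was -0.45 (95% interval -0.78 to -0.13, unadjusted p = 0.0106 and adjusted p = 0.199 in edgeR). In the same cells Mgll stood at 27.7 ± 5.36 CPM, Faah at 31.1 ± 8.89, Abhd6 at 62.4 ± 16.3, Daglb at 18.1 ± 13.2, Napepld at 11.8 ± 2.14 and Dagla at 9.64 ± 6.10 (SD, n = 4 each).

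**Figure D4:**
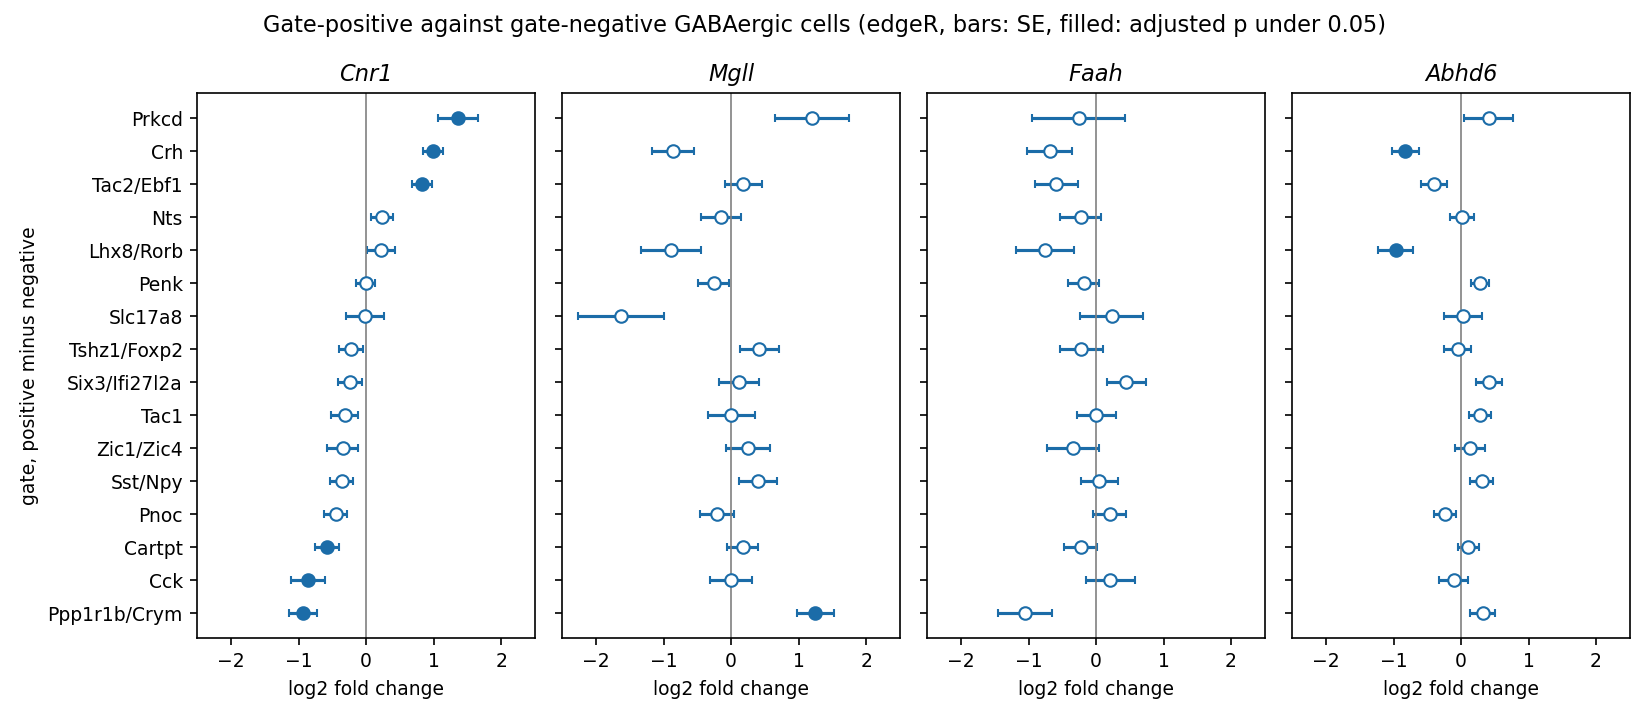
Log2 fold change (horizontal axis) of Cnr1, Mgll, Faah and Abhd6 between gate-positive and gate-negative GABAergic cells in each of the 16 gates (vertical axis), with bars for the SE of the edgeR fit. Filled points are past an adjusted p of 0.05: 6 for Cnr1, 1 for Mgll, none for Faah and 2 for Abhd6.

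Cnr1 was also uneven between single GABAergic cells. The 176 cells with at least 2 Cnr1 UMIs were 7.74% of the cells and held 63.5% of the Cnr1 UMIs, and 13.3% of all UMIs. From depth alone, with 1 level for all cells of a library, 142 cells would have at least 2 UMIs and 1.63 cells at least 5, where 16 were counted, with up to 12 in a cell. Mgll and Abhd6 had 49 and 134 cells with at least 2 UMIs, where depth alone gives 23.1 and 111.

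The 176 Cnr1-positive cells (60, 30, 46 and 40 in libraries 1 to 4) were then compared with the 1803 GABAergic cells without a Cnr1 UMI. This reads the same cells as the gates from the other side and is no independent support for them. Of 8566 genes 136 (1.59%) passed the edgeR threshold, 57 higher and 79 lower, and 117 of the 136 had the same sign in all 4 libraries. The 5 largest rises among those were Prkcd, Tac2, Sostdc1, Crh and Thsd7b. Crh was at 512 ± 133 CPM in Cnr1-positive and 194 ± 5.99 CPM in Cnr1-negative cells (log2 difference 1.37, SE 0.11, adjusted p = 6.67e-09 in edgeR), with values of 418, 406, 692.5 and 533 CPM in the positive cells. Prkcd differed by 1.69 and Tac2 by 1.65, and Tac2 in the positive cells split into 1355 and 1269 CPM in libraries 1 and 4 against 421 and 262 in libraries 2 and 3. Sostdc1, a secreted BMP and Wnt antagonist, differed by 1.46 and Thsd7b by 1.34. The call was lost in 4 of 12 alternative settings for Sostdc1, 6 of 12 for Thsd7b, 2 of 14 for Tac2, 1 of 14 for Prkcd and 0 of 14 for Crh.

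The 5 largest falls were Cck, Npy, Ppp1r17, Igsf1 and Ppp1r1b. Cck was at 39.1 ± 35.7 CPM in Cnr1-positive and 263 ± 104 CPM in Cnr1-negative cells (log2 difference -3.09, SE 0.26, adjusted p = 1.28e-08 in edgeR). Npy, the neuropeptide Y gene, was at 65.8 ± 67.7 against 617 ± 367 CPM (-2.91, edgeR adjusted p = 8.89e-10), lower in each library. The gate genes Cartpt (-1.11), Six3 (-1.13), Zic1 (-1.31), Tshz1 (-1.55) and Crym (-1.74) were lower in 4 of 4 libraries, and Sst (-1.46) in 3. The call was lost in 6 of 11 alternative settings for Ppp1r17, 4 of 11 for Igsf1, 1 of 14 for Npy, and 0 of 14 for Cck and for Ppp1r1b. Of the gate genes, Tshz1 lost it in 6 of 13, Zic1 in 5 of 14, Sst in 4 of 14, Cartpt and Six3 in 3 of 14 each and Crym in 2 of 14. Of Cnr1-positive cells 27.8% were in the Crh gate against 7.43% of negative cells, 21.0% against 7.54% in the Tac2 or Ebf1 gate, 7.95% against 1.498% in the Prkcd gate and 3.41% against 6.55% in the Cck gate. Other gates went both ways. Nts was at 19.3% against 11.65%, and Ppp1r1b or Crym at 5.68% against 11.65%. The shares of Pnoc (15.3% against 11.4%) and Cartpt (16.5% against 15.3%) were higher, though Cnr1 CPM was lower in those gates. The part of depth in these shares was not tested. Cnr1-positive cells were deeper, with a median of 6000 UMIs against 2957, and the calls shrank to 28 with DESeq2 and to 7 without the library block.

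None of the other members moved with Cnr1 past the threshold. Abhd6 had a log2 difference of -0.56 (SE 0.21, unadjusted p = 0.0122 and adjusted p = 0.252 in edgeR), Faah -0.31, Mgll -0.18 and Daglb -0.09. Dagla and Napepld had too few counts to test. DESeq2 did not call Abhd6 and gave no adjusted p for the other 3. Of the 13 genes of the pathway list that were tested, 1 was called, Grm5, lower in Cnr1-positive cells in 4 of 4 libraries at 278.5 ± 105 against 378 ± 123.5 CPM (log2 difference -0.44, SE 0.11, edgeR adjusted p = 0.0261). The Grm5 call was lost in 7 of 14 alternative settings: without library 1, 2 or 3, without the block, with DESeq2, at 5% mitochondrial UMIs and in cells with at least 2000 UMIs.

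**Figure D5:**
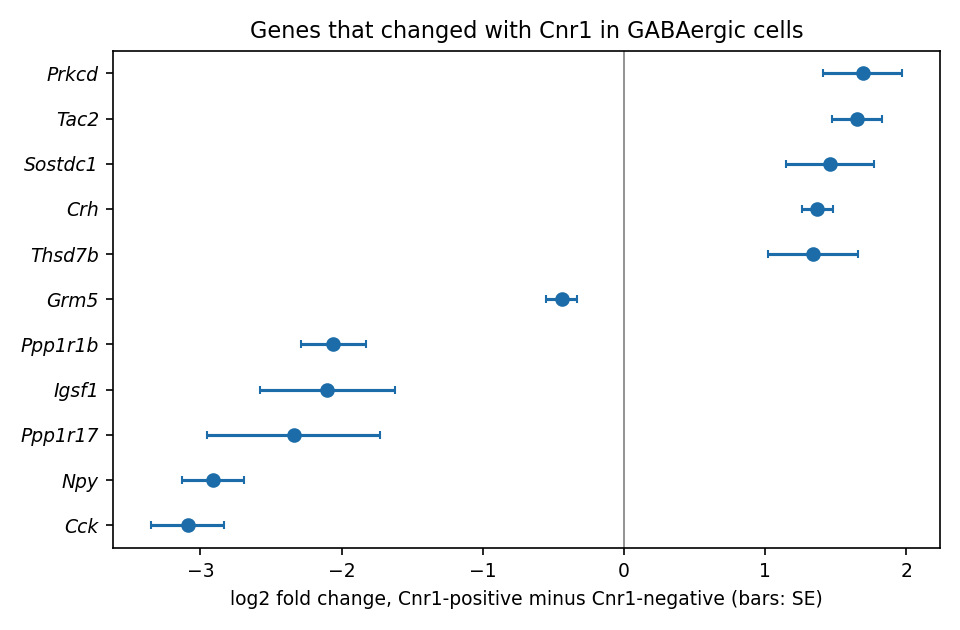
Log2 fold change (horizontal axis) between GABAergic cells with at least 2 Cnr1 UMIs and those with none, for the 5 largest rises, the 5 largest falls and Grm5 (vertical axis), with bars for the SE of the edgeR fit over 4 libraries. Prkcd, Tac2 and Crh lie between 1.37 and 1.69, and Npy and Cck near -3.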

How the data were processed

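The deposited tables hold raw UMI counts per gene and cell barcode, whole numbers that the authors made from Drop-seq reads of 4 libraries, 1 per batch. Alignment used STAR 2.4.2a with Picard 2.2.4 and bcl2fastq 2.18.0.12 on GRCm38 (mm10), per the submitters' processing notes. The annotation, the counting strand and the rule that chose the barcodes are not given in the sources used here. The tables were read as deposited and no column lacked a sample.

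Barcodes with at least 400 genes and at most 10% mitochondrial UMIs were kept, and doublets were removed with Scrublet in scanpy 1.11.5 (expected rate 0.05). A cell joined the class whose panel of 8 markers had the most distinct markers with a UMI, at least 2 and at least 2 more than any other of 7 panels (7 markers for precursors, since 1 is not in the tables). GABAergic and glutamatergic neurons were split by their transporter and synthesis genes. UMIs were summed per library and group of at least 10 cells. Sums were tested with edgeR 4.0.16 in R 4.3.3 (quasi-likelihood F-test, TMM scaling, filterByExpr, library as block) with p-values adjusted by Benjamini and Hochberg's method over the genes of each fit and a threshold of 0.05. The library block pairs the groups because both sums come from the same pool of mice. P-values measure the spread between these 4 pools, not between animals. Levels were computed with pandas 2.3.3, scipy 1.17.1 and numpy 2.4.6 and drawn with matplotlib 3.10.9, in Python 3.11.15. Gene positions come from GENCODE vM21.

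Alternatives were 800 genes or 5% mitochondrial UMIs as limits, stricter markers (at least 3 distinct, at most 1 of another panel), other gate limits, DESeq2 1.42.0 or its size factors, no low-count filter, no block, and leaving out each library. On simulated counts the class test found 100% of 155 genes changed 4-fold among 3582, with 3.12% wrong calls, and the test of Cnr1-positive cells found 94.9% among 8466 genes, with 5.59% wrong calls. The test of the Cck gate found 89.7% of 184 genes changed 4-fold among 8515, with 2.37% wrong calls. All other genes were simulated as unchanged, whereas 72.8% were called between GABAergic neurons and glia. These rates therefore need not hold for the data, nor for changes smaller than 4-fold.

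Named genes are the 7 members, the 3 largest called changes of the pathway list in each direction, its calls with Cnr1, and the 5 largest rises and falls with Cnr1 that had 1 sign in every library. One result that this rule names is not reported here. The members and lists were chosen with earlier results of these data known.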

Additional observations from a re-analysis of the deposited data

Results flagged for a closer look

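With 4 libraries a group, 1 library was far from the other 3 in 8 of 51 sets of values. In 4 of the 8 the other 3 libraries were at 0 with 5 or fewer UMIs in all, so that 1 library stands apart by construction, and the rate of about 1 in 20 that chance gives for continuous values does not apply to such counts. Daglb in GABAergic neurons was at 23.9 CPM in library 4 and at 12.7 to 13.8 CPM in the others. Daglb in astrocytes was likewise high in library 4, at 48.3 CPM against 9.67 to 14.5 CPM, from 6 UMIs in all. Cnr1 in astrocytes was at 32.2 CPM in library 4 and 0 in the rest, from 2 UMIs. Napepld in glutamatergic neurons was at 19.6 CPM in library 1 and 0 in the rest, from 5 UMIs. In precursors, Dagla was at 19.5 CPM in library 1 and Napepld at 34.9 CPM in library 3, each with 0 in the other libraries and at most 2 UMIs. Mgll in astrocytes was low in library 1, at 184 CPM against 319 to 346 CPM. Cnr1 in Nts-positive cells was high in library 3, at 180 CPM against 85.6 to 99.3 CPM.

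The 157 kept cells of no class, which entered no comparison, held 5 members above the limit of 17.3 CPM that a count of 0 allows. Mgll was at 351 CPM, Abhd6 at 144 CPM, Daglb at 57.5 CPM, Cnr1 at 51.8 CPM and Faah at 28.8 CPM. Other kept cells were also in no contrast given here. They were 42 neurons with genes of both transmitters, 112 with neither, and 53 endothelial, 25 mural and 10 microglial cells.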

How the results depend on the processing

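In the 8 class contrasts, with 3 members tested in each, 15 member calls were made. Over all genes, 31% to 75.6% were called in the contrasts with glia and 5.64% between the neuron classes. The Cnr1 calls for astrocyte and for precursor minus oligodendrocyte rest on 2 and 3 UMIs against 0. The 15 calls became 9 with cells of at least 800 genes and 24 without the low-count filter (where all 7 members entered). They became 8 in cells of 500 to 2000 UMIs, a window chosen after the data were seen. Leaving out 1 library each gave 9 to 16, the lowest without library 3. The 263 genes between GABAergic and glutamatergic neurons became 101 at 5% mitochondrial UMIs, 165 with DESeq2's size factors, 78 with DESeq2, 926 without the filter and 110 without the replicate block, and 155 to 194 with 1 library left out (162 without library 3, 155 without library 4). The 500 to 2000 UMI window gave no value there. The 9 member calls between gates became 5 at 5% mitochondrial UMIs, 5 with DESeq2, 3 without the replicate block and 1 with positive cells in no other gate, where 5 of 16 gates could be fitted, and 5 to 8 with 1 library left out (5 without library 1). The 136 genes that moved with Cnr1 became 89 at 5% mitochondrial UMIs, 28 with DESeq2 and 7 without the replicate block, and 24 to 108 with 1 library left out (24 without library 1, 74 without library 3). The thinned Cnr1 share of 8.15% was 4.26% at 500 UMIs, a smaller draw by construction, and 7.12 to 8.59% with 1 library left out; the Mgll share of astrocytes ranged from 14.5 to 20.2%.

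Of 639 alternative values for 50 single results, 528 kept their sign and side of the threshold, 88 kept the sign but lost the call, 3 gained a call and 20 changed sign. The sign changes were as follows. Abhd6 for GABAergic minus glia was 0.07 with 800 genes and 0.05 without the filter. Abhd6 for GABAergic minus oligodendrocyte was -0.11 with 800 genes, -0.39 at 5% mitochondrial UMIs, -0.20 with size factors and with DESeq2, and -0.26 without library 3. Mgll for GABAergic minus oligodendrocyte was 0.41 at 500 to 2000 UMIs, and for precursor minus astrocyte 0.19 with 800 genes. Cnr1 for astrocyte minus oligodendrocyte, which rests on 2 UMIs, was -0.03 with 800 genes and ranged from -0.03 without library 4 to 5.28 without library 2. For GABAergic minus glutamatergic, Cnr1 was 0.09 with stricter markers, 0.26 without the filter, 0.11 without the block, and from -0.02 without library 1 to 0.05 without library 4. In the same contrast Mgll was 0.45 at 5% mitochondrial UMIs, 0.03 with stricter markers, 0.19 without the filter, and from -0.74 without library 1 to 0.22 without library 2 and 0.41 without library 4. The cause of these changes was not tested. DESeq2's size factors moved the median class difference by -0.21 to -0.38 for GABAergic neurons, and the share of higher calls from 63.7% to 52.6% against glia, from 58.9% to 47.9% against astrocytes, from 59.6% to 44% against precursors and from 81% to 46.1% against glutamatergic neurons. Depth limits Dagla, Napepld and the glutamatergic values most, with at most 78 UMIs a class.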
